A study of Rattus norvegicus with 16 samples.

Results

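The genes described here are the subunits of ubiquitin ligases known to act on the transcription factor c-Jun, together with the kinase Csk. The list holds 10 genes, which are Fbxw7, Cul1, Skp1, Rbx1, Cop1, Det1, Ddb1, Cul4a, Itch and Csk. Probes of the members were found by the gene name that the array files give each probe, older symbols included, without use of a measured value. The list itself was chosen with earlier results of these data known. Of these 10 genes, 7 had a probe among 35199 gene names on the array. Cul1, Rbx1, Det1 and Cul4a had 1 probe each, and Skp1, Ddb1 and Csk had 2 each, which gave 10 probes. Fbxw7, Cop1 and Itch had no probe of that name and are not analysed here, so the substrate-binding subunit of 2 of the ligases and the third ligase itself were not measured.

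Ubiquitin ligases attach ubiquitin to a protein and so mark it for the proteasome, and c-Jun, a short-lived member of the AP-1 family, is cleared in this way. In the SCF ligase, the scaffold Cul1 holds the RING subunit Rbx1 at one end and the adaptor Skp1 at the other, and the F-box protein Fbxw7 binds phosphorylated c-Jun. In the CRL4 ligase, Cul4a holds Rbx1 and the adaptor Ddb1, to which Det1 recruits Cop1 with its substrate. Itch is a single-protein HECT ligase of Jun proteins, and Csk, best known as the kinase that switches off Src-family kinases, has been described to phosphorylate c-Jun and promote its degradation. The arrays measured transcript levels of these genes, not ligase activity or c-Jun protein.

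RNA came from primary hippocampal neuron cultures of Sprague-Dawley rat embryos at embryonic day 18 to 19. In the knockdown group (KD), a pTRIP lentivirus carried a short hairpin RNA against the coding region of PRR7, an adaptor protein that spans the synaptic membrane, and in the NT group a lentivirus carried a hairpin with no target. In the overexpression group (OE), a FUGW lentivirus carried full-length PRR7, and the NO group received no virus, so the overexpression virus had no empty-vector control among these samples. Each of the 4 groups held 4 samples, which the study design calls biological replicates. Nothing says whether they came from separate cultures or litters, so p-values measure the spread between these samples, which may be technical. Each of 8 Agilent 2-dye arrays carried 2 samples of the same group, KD and NT shared a slide, and OE and NO shared the other slide. KD against NT and OE against NO were therefore compared within a slide, while in every other pair of groups slide and group cannot be told apart. The hairpin target is shown because it defines the KD group, with its 19 bases in capitals.
PRR7 hairpin target: CGGAATCGGACATGTCTAA

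Between 50.2% and 70.5% of all probes were well above background in a sample. No probe was named Prr7, so neither the knockdown nor the overexpression could be checked at the transcript. Neuron markers such as Map2 and Snap25 had 5 probed genes of 6, and all 5 were above background in every sample. Between KD and NT 0 neuron markers passed, and 1 was lower in NT than in NO. Of 6 microglia markers, Aif1, Cx3cr1 and Itgam were above background in 0 samples and so were not tested. Ptprc was above background in 4, C1qa in 9 and Csf1r in all 16, and no tested microglia marker passed between KD and NT. Dividing-cell markers moved with the groups: 4 of 5 probed genes were higher in KD than in NT, and 3 were lower in NT than in NO. Their summed level on the linear intensity scale was 4627 to 6477 in KD, 2543 to 3368 in OE, 1449 to 1765 in NT and 2228 to 3379 in NO. Of 6 astrocyte markers, 2 were higher and 1 lower in KD than in NT, and 2 were lower in NT than in NO. Their summed levels were 83586 to 98367 in KD and 67544 to 88922 in NT. Of 6 oligodendrocyte markers, 1 was higher in KD than in NT and 1 was lower in NT than in NO. Their summed levels were 2749 to 3270 in KD, 2596 to 3141 in OE, 1882 to 2048 in NT and 2451 to 3822 in NO, and the KD and NT ranges did not overlap. In all of these sums a spot marked as an outlier added nothing, so samples can differ in the genes summed. The part of these cells in the results below was not tested.

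Probes were 60 bases long, and their position decides which transcripts they read. The 3 probes shown here carry the results for Cul1 and Cul4a and one side of the disagreement within Csk. Each matches an interval longer than 60 bases on the rat genome build rn4, so it spans at least 1 exon junction and reads spliced RNA. Capitals mark the whole probe, written 5′ to 3′.
Cul1 A_43_P17983: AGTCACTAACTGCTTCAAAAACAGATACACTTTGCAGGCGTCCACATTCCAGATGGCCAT
Cul4a A_44_P199661: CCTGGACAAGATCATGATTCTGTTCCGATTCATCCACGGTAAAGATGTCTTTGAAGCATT
Csk A_44_P308932: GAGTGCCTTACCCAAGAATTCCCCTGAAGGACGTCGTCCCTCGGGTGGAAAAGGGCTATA

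The Cul1 probe lies at chr4:75699356-75700450 on the plus strand and begins at base 2023 of its transcript. The Cul4a probe lies at chr16:81253575-81253776 on the minus strand, beginning at transcript base 1312, and the Csk probe at chr8:61382159-61382457, also on the minus strand, at base 1197. The second Csk probe, A_42_P540933, lies nearer the 3′ end, at chr8:61381439-61381498 and transcript base 1917. The Rbx1 probe A_44_P225259 lies at chr7:119803112-119803171, and the Det1 probe A_44_P316342 at chr1:134559019-134559078. The Skp1 probes A_44_P168103 and A_44_P168112 lie at chr10:37680242-37680301 and chr10:37678739-37678798, beginning at transcript bases 1120 and 479. The Ddb1 probe A_44_P536400 lies at chr1:213120311-213120370, and the array annotation gives no position for the other Ddb1 probe, A_44_P254896.

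All 10 probes passed the filter on dim probes. Of them 9 were well above background in all 16 samples, and the Det1 probe was in 14. No member spot was saturated. Levels below are normalised log2 intensities, so a difference of 1 is a doubling. Of 160 member values, 8 were left out because the scanner software marked the spot as an outlier. Differences were tested in limma, with p-values adjusted by Benjamini-Hochberg over 27318 probes and a threshold of 0.05, and intervals are 95% confidence intervals. In bulk cultures, fewer cells of a type and less RNA per cell cannot be told apart.

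**Figure D1:**
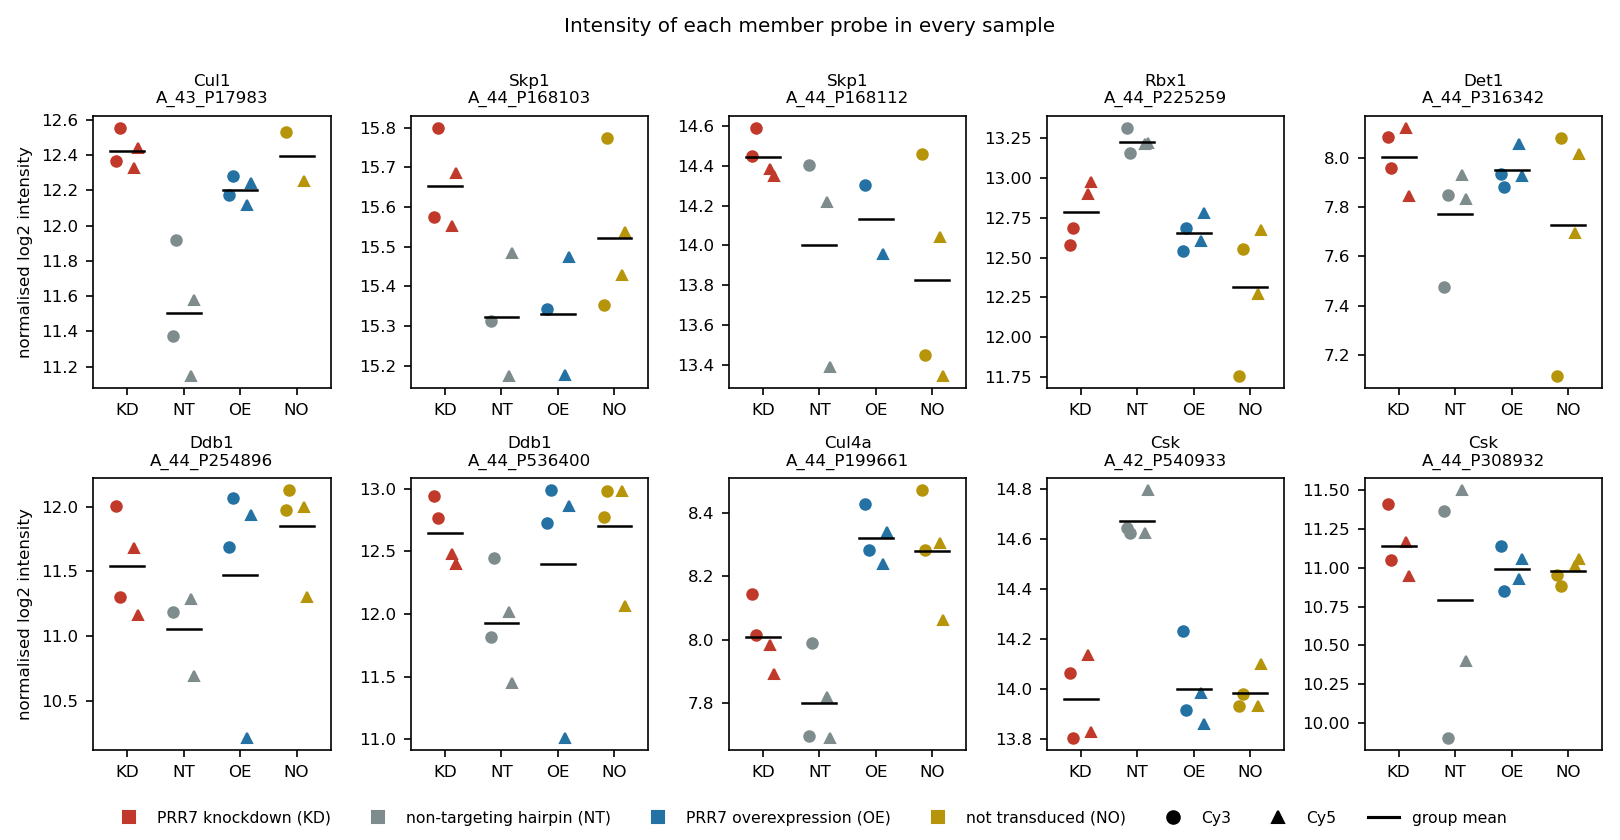
Normalised log2 intensity (vertical axis, a separate scale in each panel) of the 10 member probes in the 4 groups (horizontal axis). Circles are Cy3 samples, triangles Cy5 samples, and bars group means. NT lies apart from the other groups for Cul1 (11.15 to 11.92), Rbx1 (13.15 to 13.31) and Csk probe A_42_P540933 (14.62 to 14.79). For Cul1, NO has 2 values, both on the same array, since the others were left out as outlier spots.

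Within the first slide, 2 of the 10 probes differed between KD and NT. Cul1, the SCF scaffold, was 1.89-fold higher in KD, and the 3′ probe of Csk was 1.64-fold lower. Over all probes tested, 21% passed the same test in this comparison, so 2 of 10 is near that background. At an unadjusted p under 0.05 there were 3 of the 10 member probes, against 8940 of all 27318 probes. The median difference over the 10 probes was 0.32, against -0.02 over all probes.

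The Cul1 probe read 12.37, 12.33, 12.55 and 12.44 in the KD samples, against 11.38, 11.15, 11.92 and 11.58 in the NT samples. Every KD sample was above every NT sample. The log2 difference was 0.92 (interval 0.59 to 1.24, adjusted p = 0.000865 by limma), 0.81 within Cy3 samples and 1.02 within Cy5 samples. The difference lay between 0.86 and 1.19 and passed the threshold in all 28 alternative settings. Settings that leave out an OE or NO sample cannot move the difference itself, only its p-value.

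Csk probe A_42_P540933 read 14.06, 14.14, 13.80 and 13.83 in KD, against 14.64, 14.62, 14.62 and 14.79 in NT. Every KD sample was below every NT sample, and the NT samples were close together, with an SD of 0.08. The log2 difference was -0.71 (interval -0.99 to -0.44, adjusted p = 0.00119 by limma), with -0.70 within Cy3 and -0.73 within Cy5. It stayed between -0.75 and -0.67 and past the threshold in all 28 alternative settings, of which those without an OE or NO sample cannot move the difference itself.

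The other Csk probe did not show this. Probe A_44_P308932 read 11.41, 11.17, 11.05 and 10.95 in KD, against 11.36, 11.50, 9.90 and 10.40 in NT. NT replicates 1 and 2, which shared an array, were each above at least 3 of the 4 KD samples, and NT replicates 3 and 4, on the other array, were below all of them. The difference was 0.35 (interval -0.28 to 0.98, adjusted p = 0.458 by limma), and the groups overlapped. The lower Csk signal in KD thus rests on the 3′ probe alone, and the intervals of the 2 probes do not overlap.

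Rbx1, the RING subunit shared by the SCF and CRL4 ligases, read 12.58, 12.90, 12.69 and 12.97 in KD, against 13.31, 13.21, 13.15 and 13.22 in NT. The groups did not overlap, but the difference of -0.44 (interval -0.83 to -0.05) missed the threshold, with an unadjusted p of 0.0306 and an adjusted p of 0.108 by limma. The Rbx1 difference passed in 2 of 28 alternative settings. These were no array block (adjusted p = 0.0276 by limma) and leaving out NO replicate 1 (adjusted p = 0.0392), a sample outside this pair of groups.

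Skp1, the SCF adaptor, did not pass the test by either probe. Probe A_44_P168103 read 15.57, 15.55, 15.80 and 15.69 in KD, against 15.31, 15.17 and 15.48 in NT, where replicate 3 was left out. The values left did not overlap, and the difference of 0.29 (interval -0.03 to 0.60) had an adjusted p of 0.2 by limma. Before normalisation, the Cy3 spot left out read 42484 above its background, against 31998 and 40684 in the Cy3 KD samples. With the flagged spots kept, the difference was 0.22 (adjusted p = 0.35 by limma). Probe A_44_P168112 read 14.35 to 14.59 in KD, against 14.41, 14.22 and 13.39 in NT, a difference of 0.48 with groups that overlapped (interval -0.11 to 1.07, adjusted p = 0.256 by limma).

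The CRL4 subunits did not pass the test between KD and NT. Ddb1, the adaptor, had a difference of 0.72 by probe A_44_P536400 (interval -0.30 to 1.73, adjusted p = 0.328 by limma) and 0.45 by probe A_44_P254896 (interval -0.52 to 1.42). The Ddb1 intervals are the widest among the members. Cul4a, the scaffold, differed by 0.21 (interval -0.06 to 0.48), and Det1, the Cop1 recruiter, by 0.23 (interval -0.23 to 0.70). With the deposited values these 2 differences were 0.49 and 0.67, neither past the threshold, and Det1 was not well above background in NT replicate 1. Ddb1 probe A_44_P536400 did pass with the deposited values, at 0.92 (adjusted p = 0.0311 by limma).

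**Figure D2:**
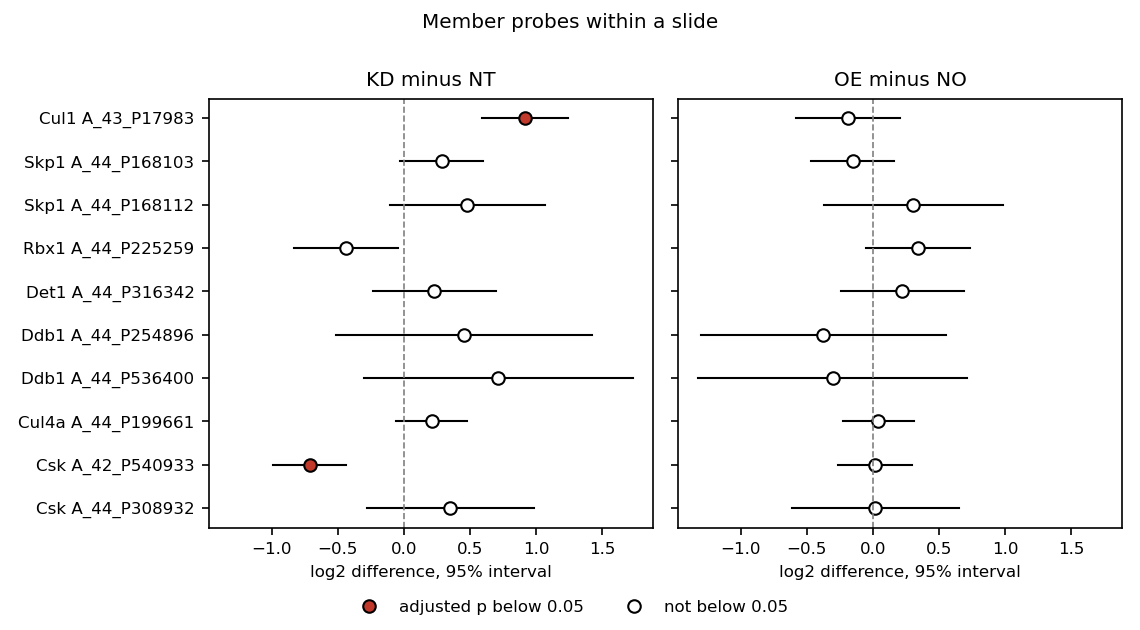
Log2 difference of each member probe (horizontal axis, with its 95% interval) for KD minus NT and for OE minus NO, 1 row a probe. Filled points passed the adjusted p threshold: Cul1 at 0.92 and Csk A_42_P540933 at -0.71 in KD minus NT, and 0 probes in OE minus NO.

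Overexpression of PRR7 gave no member difference against untransduced cultures. Of the 10 member probes 0 passed, 0 had an unadjusted p under 0.05 in limma, and 0 passed in each of the alternative settings. This is the background of the comparison, in which 1 of 27318 probes passed (0.00366%) and 1041 had an unadjusted p under 0.05. That single probe reads Eftud2, a splicing factor outside the list.

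Cul1 read 12.17, 12.12, 12.28 and 12.24 in OE, against 12.53 and 12.26 in NO, where replicates 1 and 2 were left out. The difference was -0.19 (interval -0.58 to 0.20), and with those spots kept it was 0.27, the other sign. Csk probe A_42_P540933 read 14.23, 13.98, 13.91 and 13.86 in OE, against 13.93, 13.93, 13.98 and 14.10 in NO, and the groups overlapped at a difference of 0.01 (interval -0.27 to 0.29). Cul4a differed by 0.04 (interval -0.23 to 0.31). For this Csk probe, a change as large as its KD against NT difference lies outside the interval.

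Rbx1 had the smallest unadjusted p in this comparison, 0.0854. It read 12.54, 12.60, 12.69 and 12.78 in OE, against 11.76, 12.27, 12.55 and 12.68 in NO, a difference of 0.34 (interval -0.05 to 0.73) with overlapping groups. NO replicates 1 and 2, which shared an array, gave the low values.

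The Ddb1 values in OE were set apart by 1 sample. Probe A_44_P536400 read 12.72, 11.01, 12.99 and 12.86 in OE, against 12.78, 12.98, 12.98 and 12.06 in NO, and probe A_44_P254896 read 11.69, 10.21, 12.07 and 11.94 in OE, against a range of 11.30 to 12.13 in NO. OE replicate 2 was the lowest of its group by both probes. The differences were -0.30 and -0.38, with intervals of -1.32 to 0.71 and -1.30 to 0.55. Without OE replicate 2 they were 0.06 and -0.03.

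Det1 and Skp1 also overlapped between OE and NO. Det1 read 7.93, 8.06, 7.88 and 7.93 in OE, against 7.12, 7.70, 8.08 and 8.01 in NO, where replicate 1 was not well above background. The 3′ Skp1 probe A_44_P168103 differed by -0.15 (interval -0.47 to 0.16), and Skp1 probe A_44_P168112, with 2 OE values left, by 0.31 (interval -0.37 to 0.98).

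The 2 within-slide differences were then set against each other in the same fit. The KD against NT difference minus the OE against NO difference was 1.11 for Cul1 (interval 0.60 to 1.62, adjusted p = 0.0106 by limma) and -0.73 for Csk probe A_42_P540933 (interval -1.12 to -0.33, adjusted p = 0.0212 by limma). These 2 of 10 member probes stand against 9.62% of all probes in this comparison. Rbx1, at -0.78, had an adjusted p of 0.0766. The Cul1 value rests on 2 NO samples, and with the flagged spots kept it was 0.65 (adjusted p = 0.297 by limma). With the deposited values the Csk probe was at -0.52 (adjusted p = 0.27) and Ddb1 probe A_44_P536400 passed, at 1.40 (adjusted p = 0.0286 by limma). With the array means as the samples, 0 member probes passed.

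Across the slides, the NT group stood apart from the untransduced cultures. Of the 10 member probes, 4 differed between NT and NO, with Rbx1 and the 3′ Csk probe higher in NT and Cul1 and Cul4a lower. The background of this comparison was 22.2%. The slide changes together with the group here, so the hairpin virus and the slide cannot be told apart.

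Rbx1 was 0.91 higher in NT on the log2 scale, or 1.88-fold (interval 0.52 to 1.30, adjusted p = 0.00263 by limma). Its NT values of 13.15 to 13.31 were above all NO values of 11.76 to 12.68. Csk probe A_42_P540933 was 0.69 higher in NT (interval 0.41 to 0.97, adjusted p = 0.00171 by limma), with NT values of 14.62 to 14.79 above NO values of 13.93 to 14.10.

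Cul1 was -0.89 in NT relative to NO (interval -1.28 to -0.49, adjusted p = 0.00424 by limma), a fold of 1.85 downward. This value rests on 2 NO samples of 1 array, since both spots of the other NO array were marked as outliers. With those spots kept, the difference was -0.43 and the adjusted p 0.238 by limma. Cul4a read 7.70, 7.82, 7.99 and 7.69 in NT, against 8.47, 8.30, 8.28 and 8.06 in NO, a difference of -0.48 (interval -0.75 to -0.21, adjusted p = 0.0136 by limma) with no overlap.

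The remaining 6 probes had adjusted p-values of 0.253 to 0.908 between NT and NO. Among them the Ddb1 probes had differences of -0.76 (A_44_P254896) and -0.77 (A_44_P536400), about as large as those of Csk, with intervals that reached 0.20 and 0.25. The Csk probe A_44_P308932 differed by -0.18 (interval -0.82 to 0.45), against 0.69 by the 3′ probe.

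In OE against NT, which shares the NT samples with the preceding comparison, 4 of the 10 member probes passed. The background was 22.5%. Cul1 was 0.70 higher in OE than in NT (interval 0.37 to 1.02, adjusted p = 0.00565 by limma), a call that was lost with the flagged spots kept (adjusted p = 0.0566). The flagged Cul1 spots lay in NO, so the difference stayed at 0.70 and only its p-value moved. Cul4a was 0.52 higher (interval 0.25 to 0.79, adjusted p = 0.00832 by limma). Cul4a read 8.43, 8.24, 8.28 and 8.34 in OE, above every NT sample. With Agilent's processed signals the Cul4a difference was 1.00 in OE against NT and -0.83 in NT against NO, and with the deposited values -0.73 in NT against NO, each still past the threshold.

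The 3′ Csk probe was -0.67 in OE relative to NT (interval -0.95 to -0.40, adjusted p = 0.00195 by limma), and -1.06 with the deposited values. Rbx1 was -0.57 (interval -0.96 to -0.18, adjusted p = 0.037 by limma). The Rbx1 call was the least stable of these 4, passing in 22 of 27 alternative settings. It did not pass with the array means as the samples (adjusted p = 0.0888), without NT replicate 1 (adjusted p = 0.0655 by limma), without NT replicate 3 (adjusted p = 0.0579), without OE replicate 2 (adjusted p = 0.0662) or without OE replicate 4 (adjusted p = 0.0586).

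**Figure D3:**
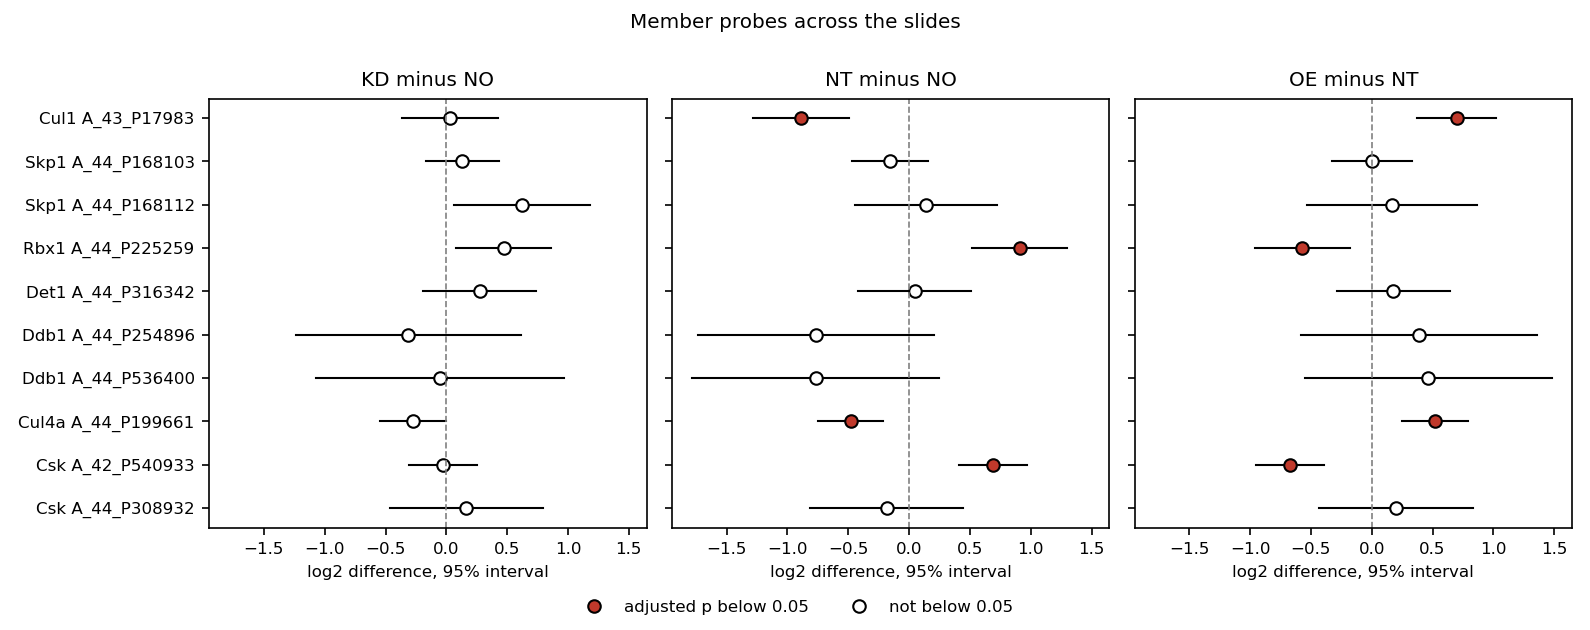
Log2 difference of each member probe (horizontal axis, with its 95% interval) for KD minus NO, NT minus NO and OE minus NT, 1 row a probe. Filled points passed the adjusted p threshold. No probe is filled in KD minus NO. Cul1, Rbx1, Cul4a and Csk A_42_P540933 are filled in NT minus NO and in OE minus NT, which share the NT samples.

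KD against NO gave 0 called member probes, against a background of 10.1%. At an unadjusted p under 0.05 it gave 3 of 10 member probes and 6854 of all 27318 probes. Cul1 differed by 0.03 (interval -0.37 to 0.42) and the 3′ Csk probe by -0.03 (interval -0.31 to 0.25). These are the 2 probes called between KD and NT. The Cul1 value rests on 2 NO samples of 1 array, and with the flagged spots kept it was 0.49 (adjusted p = 0.242 by limma). KD and NO lay on different slides.

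The 3 member probes with an unadjusted p under 0.05 between KD and NO were Skp1 probe A_44_P168112, at 0.62 (adjusted p = 0.165 by limma), Rbx1, at 0.47 (adjusted p = 0.123 by limma), and Cul4a, at -0.27 (adjusted p = 0.197 by limma). With the deposited log2 values 1 member probe was called in this comparison, which was Skp1 A_44_P168112, and with no array block Rbx1 and Cul4a were.

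KD against OE gave 0 called member probes as well, against a background of 10.3%. Cul4a had the smallest unadjusted p, 0.0259, with 8.14, 7.98, 8.02 and 7.89 in KD, against 8.43, 8.24, 8.28 and 8.34 in OE, a difference of -0.31 (adjusted p = 0.132 by limma). Cul1 differed by 0.22 (interval -0.11 to 0.54, adjusted p = 0.407 by limma).

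The order of the group means differed among the members. Cul1 averaged 12.42 ± 0.10 in KD (SD, n = 4), 12.39 ± 0.20 in NO (n = 2), 12.20 ± 0.07 in OE (n = 4) and 11.51 ± 0.33 in NT (n = 4), and only the step to NT passed the test. The 3′ Csk probe averaged 14.67 ± 0.08 in NT, 14.00 ± 0.16 in OE, 13.98 ± 0.08 in NO and 13.96 ± 0.17 in KD (SD, n = 4 each). Again only the step to NT passed the test, and in both orders this step was OE against NT, which crosses the slides. Rbx1 ran 13.22 ± 0.07 in NT, 12.78 ± 0.18 in KD, 12.65 ± 0.10 in OE and 12.31 ± 0.41 in NO (SD, n = 4 each), where no neighbouring pair passed. Cul4a ran 8.32 ± 0.08 in OE, 8.28 ± 0.17 in NO, 8.01 ± 0.10 in KD and 7.80 ± 0.14 in NT (SD, n = 4 each), and again no neighbouring pair passed.

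Where a gene had 2 probes, they followed each other over samples for Ddb1 but not for Skp1 or Csk. Pearson's r between the probes was 0.94 for Ddb1 over 15 samples, -0.08 for Skp1 over 13 and -0.24 for Csk over 16. These are descriptions of probes that share their arrays. For Csk, both probes carry the same RefSeq transcript and begin 720 bases apart, so no change can be stated for the gene as a whole.

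**Figure D4:**
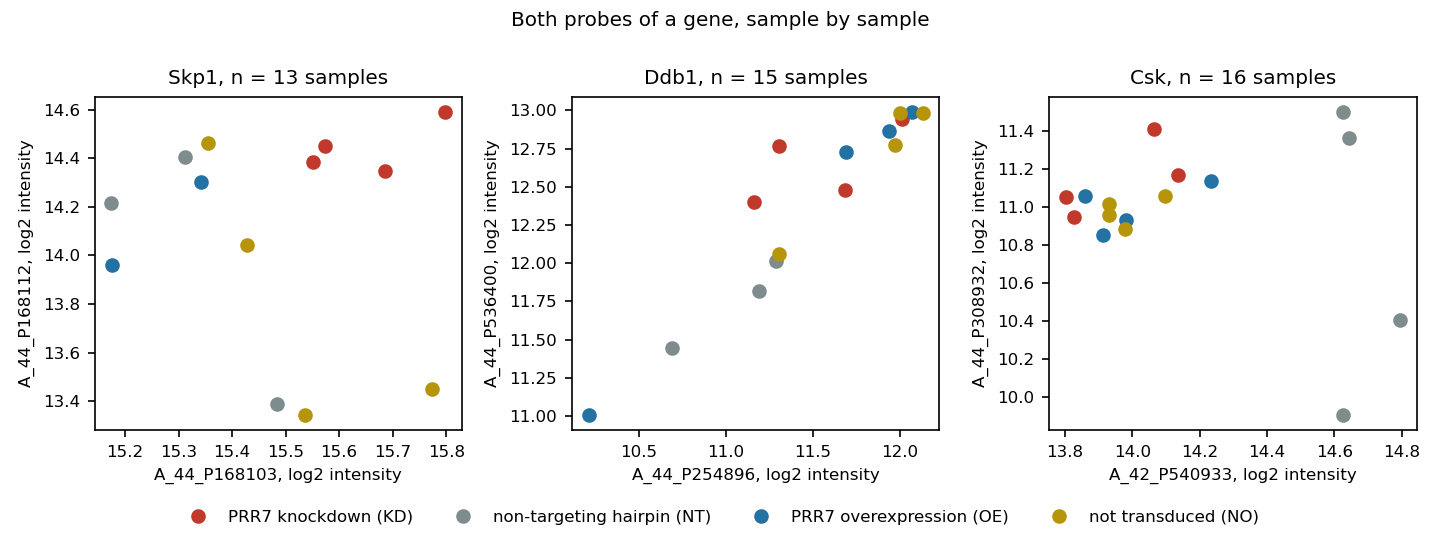
Log2 intensity of both probes of Skp1, Ddb1 and Csk, 1 point a sample, with 1 probe on each axis. The Ddb1 points lie along a line (r = 0.94), the 4 NT points of Csk lie to the right of all others, from 9.90 to 11.50 on the vertical axis, and the Skp1 points show no line (r = -0.08).

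The genes whose levels went most like those of the 3 member probes with the widest range of group means among those called in any pair of groups were found over all samples with values. For Cul1 they included Bend6 (r = 0.975) and Fkbp1b (r = 0.967) over 14 samples. For Rbx1 they were RGD1305158 (r = 0.967), Tspan15 (r = 0.942) and Rbbp8 (r = 0.937), and for the 3′ Csk probe Ube2e2, a ubiquitin-conjugating enzyme (r = 0.956), Slc19a1 (r = 0.956) and Plk3 (r = 0.955), over 16 samples each. They are the highest of many correlations and a description only.

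The other genes of these pathways were followed in 5 lists, with the brightest probe of each gene. Over 22981 genes, 21.5% passed in KD against NT and 0.00435% in OE against NO, and in OE against NO 0 members of any of the 5 lists passed. Of the SCF partners and regulators, 5 of 21 tested genes were higher in KD than in NT and 1 was lower, with a median difference of 0.17, against -0.02 over all genes. Gsk3a and Gsk3b, kinases that phosphorylate substrates of Fbxw7, rose by 0.97 (adjusted p = 0.000463) and 1.05 (adjusted p = 0.0101) in limma. Rnf7, the RING subunit akin to Rbx1, fell by 1.24 (adjusted p = 0.0023).

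In KD against NO, Gsk3a, Gsk3b and Rnf7 were at -0.11, 0.34 and -0.70, with adjusted p-values of 0.713, 0.457 and 0.081 by limma. Of the COP1, CRL4 and COP9 signalosome partners, 2 of 19 were higher in KD than in NT and 1 was lower. Dcaf11, a receptor subunit that binds Ddb1, rose by 0.49 (adjusted p = 0.00573), and Cops6, a subunit of the signalosome that strips NEDD8 from cullins, by 0.50 (adjusted p = 0.015). Against NO, Dcaf11 in KD was at 0.09 (adjusted p = 0.641) and Cops6 at -0.01 (adjusted p = 0.964 by limma). Trib3, a Tribbles pseudokinase, fell by 0.71 (adjusted p = 0.0102 by limma), and its KD mean of 9.09 was also below the 11.02 of NO (adjusted p = 1.33e-05).

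Of the NEDD4-family ligases and Itch adaptors, 2 of 15 were higher in KD than in NT and 4 were lower. The HECT ligase genes Nedd4l and Smurf2 rose by 1.30 (adjusted p = 9.69e-05) and 0.43 (adjusted p = 0.0111 by limma), and the 2 other Smurf2 probes did not pass. Wwp2, a further HECT ligase, fell by 0.60 (adjusted p = 0.000616), and Usp9x, a deubiquitinase, by 0.54 (adjusted p = 0.00146), where its 4 other probes did not pass. In KD against NO, 1 of the 15 genes was higher and 0 were lower, where 10.2% of all genes passed.

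Of the Src-family kinases and Csk partners, 4 of 15 were higher in KD than in NT and 2 were lower. Lyn and Src, kinases under Csk control, rose by 0.77 (adjusted p = 0.000497) and 0.35 (adjusted p = 0.0197 by limma), and the phosphatase gene Ptpn1 by 0.57 (adjusted p = 0.0158). Lime1, a membrane adaptor that binds Csk, fell by 0.43 (adjusted p = 0.0166). In KD against NO, 0 of the 15 genes were higher and 1 was lower, where 10.2% of all genes passed.

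Of 19 tested genes for substrates of these ligases, 4 were higher and 4 lower in KD than in NT. Ccne1 (cyclin E, an Fbxw7 substrate) rose by 2.60 (adjusted p = 1.21e-06) and Cdt1 (a CRL4 substrate) by 1.86 (adjusted p = 1.06e-06 by limma), in the same samples in which the dividing-cell markers were higher. Junb and Txnip, which encode Itch substrates, fell by 2.33 (adjusted p = 6.54e-08) and 1.04 (adjusted p = 0.000465). In KD against NO, 5 of the 19 genes were higher and 3 were lower, where 10.2% of all genes passed. Jun itself differed by -0.17 between KD and NT (adjusted p = 0.729 by limma), and averaged 12.16 in OE, against 12.32 in NO (difference -0.16). Jun was lower than in NO both in KD, by -1.48 (adjusted p = 0.00295), and in NT, by -1.32 (adjusted p = 0.00287 by limma), 2 comparisons that cross the slides.

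**Figure D5:**
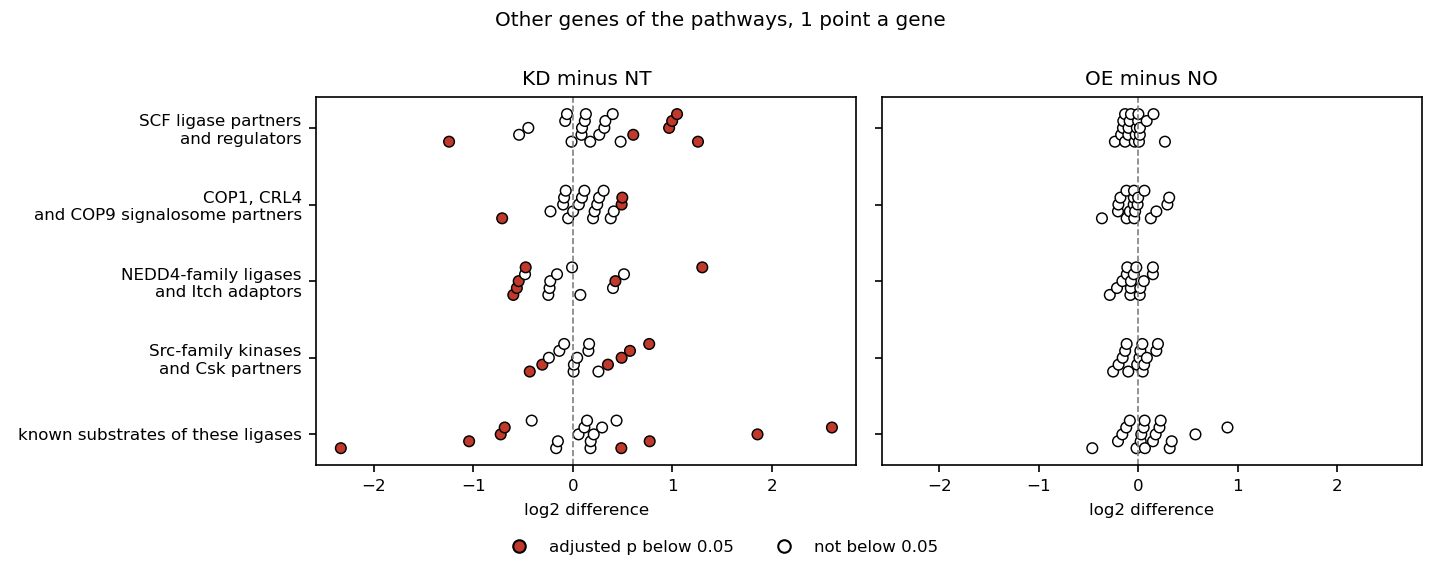
Log2 difference (horizontal axis) of the other genes of the pathways, 1 point a gene in 5 lists, for KD minus NT and for OE minus NO. Filled points passed the adjusted p threshold. The substrate list spreads widest in KD minus NT, between -2.33 for Junb and 2.60 for Ccne1, and no point is filled in OE minus NO.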

How the data were processed

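Two-dye Agilent arrays were read in 16 samples. The intensity values are, per the file headers, mean spot and median background intensities from Feature Extraction 10.7.3.1, not normalized. The same files hold processed intensities, and the deposited series matrix holds log2 values that correlated with log2 net signal at 0.9995 to 0.9999. The processing text was not given in the sources used here. A label naming adult brain tissue contradicts the culture labels and was not used.

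In limma 3.58.1 (R 4.3.3, statmod 1.5.0), backgrounds were corrected by normexp with an offset of 50, dyes by loess (control spots weighted 0), then arrays were scaled by Aquantile. Outlier-flagged spots were set to missing. Probes above background in at least 4 samples, with at least 12 values in all and 2 in each group, were kept (27318 of 41012). Group and dye were terms and the array a random block (correlation 0.562, 11 residual and 4.03 prior degrees of freedom), with two-sided p-values and Benjamini-Hochberg adjustment at 0.05. Of the probes 17597 were named through RefSeq and the rest by the array. The fit was tested on simulated data. The number of arrays limits the precision. Figures used matplotlib 3.10.9 in Python 3.11.15.

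Same-numbered samples were checked for pairing. With group means removed, KD and NT samples of the same number correlated at 0.131, 0.153, 0.265 and 0.192, all above 0.1. Pairs on different slides were as high, with a lowest value of 0.162 for KD against NO and 0.135 for KD against OE. Between OE and NO the lowest was -0.201. Samples of the same number also share a dye. With dye means removed as well, the lowest KD against NT correlation was 0.0576. Pairing of KD and NT samples was therefore not established.

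All members and probes were named. Of each pathway list, up to 4 called members with the smallest p in KD against NT were named, and Jun always. Genes of like pattern are the 3 with the highest r for each of 3 member probes. Some genes chosen in this way are left out of the text. Members and lists were chosen with earlier results of these data known. The comparisons were the 6 pairs of groups and the difference of the 2 within-slide pairs. Alternatives were Agilent's processed signals, quantile normalization of single channels, the deposited values, other filters, no block, no dye term, array means, each slide alone, the replicate number as a block, 1 probe per gene, and each sample left out. Keeping flagged spots was added after seeing the data.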

Additional observations from a re-analysis of the deposited data

Results flagged for a closer look

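Of 34 groups with 4 values, 2 held a sample far from the others by Dixon's criterion, and chance alone marks about 1 in 20 such groups. For Ddb1 probe A_44_P536400, OE replicate 2 read 11.01, the lowest value, with a gap to the next that was 0.866 of the group's range. For Csk probe A_42_P540933, NT replicate 4 read 14.79, the highest value, with a gap of 0.887 of a narrow range.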

How the results depend on the processing

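The count of called member probes in KD against NT was 2 to 3 in all alternatives, and Cul1 and the 3′ Csk probe were called in each of the 28. The extra call was Ddb1 A_44_P536400 with the deposited values, and Rbx1 with no array block and without NO replicate 1. With the replicate block, where samples of the same number are treated as paired, Cul1 was at 0.92 and Csk A_42_P540933 at -0.71, and 6710 probes were called in KD against NT. No member call changed with it in the 6 pairs of groups or in the difference of the within-slide pairs. No called member difference changed sign under any alternative. Of 1556 values of uncalled differences under the alternatives, 46 had the other sign. Without the array block the counts over all probes were 9797 (KD against NT), 30 (OE against NO), 7110 (KD against NO), 10800 (NT against NO), 10790 (OE against NT), 7343 (KD against OE) and 6177 (difference of the within-slide pairs), with 2 member probes in KD against NO and 1 in KD against OE. With array means they were 0 (OE against NO), 1213 (KD against NO), 1230 (KD against OE) and 1133 (difference), and 0 member probes were called in the difference, where fewer samples entered. OE against NO gave 2 calls with Agilent's processed signals, 4 with the deposited values, 0 with the slide alone, and 0 to 2 when single samples were left out. With the deposited values KD against OE gave 6480 calls, and 1 member probe was called in KD against NO. With flagged spots kept, 1 member probe was called in the difference. The causes were not tested. Signal over background limits Det1 most, which was not well above background in 2 samples.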
